A study of Mus musculus with 8 samples.

Results

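Sites of DDX5, a DEAD-box RNA helicase, on 10 myosin heavy chain genes were taken from 3 peak lists of enhanced cross-linking and immunoprecipitation (eCLIPseq) in mouse intestinal epithelial cells (IECs). The genes were Myh9, Myh10, Myh11, Myh14, Myo1a, Myo1d, Myo1e, Myo5b, Myo6 and Myo7b, out of 6582 genes of GENCODE M21 with a peak in any list. They were selected on measured values, because Myh9 and Myo1e had enriched peaks in all 3 lists, so their enrichment is given as a description with no test. A peak counted as theirs when it overlapped the gene on its strand. In eCLIPseq, UV light links a protein to RNA it contacts, an antibody pulls the protein down (immunoprecipitation, IP), and the RNA fragments that come with it are sequenced and compared with an input library of the same fragment sizes made without the antibody step.

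The small intestine list came from 2 CLIP and 2 input samples of wild type C57BL/6 females at 8 weeks, harvested with EDTA and merged by the authors into 1 list that keeps only reproducible, enriched peaks. The colon lists came from 1 CLIP and 1 input sample each for antibodies named mAb and rAb, with all called peaks kept. The colon labels gave the genotype as wild type and also described mice aged 120 days with Apc fl/+ and a CDX2 Cre, which the study used for its colon tumor model. The study itself states that its colon eCLIPseq used IECs of 2 wild type mice. Which mice gave the colon lists is not resolved here. The colon labels also gave the same antibody catalogue number for mAb and rAb, and the names of the colon lists mark them as merged from 2 replicates. What separates mAb from rAb is therefore not known here, and tissue, mouse, library protocol and peak selection cannot be told apart between colon and small intestine. Read totals are not given with the lists.

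Myosins are motors that move along actin filaments with energy from ATP. The class II heavy chains (Myh genes) pair through a long coiled-coil rod and assemble into bipolar filaments that contract actin, whereas the unconventional myosins (Myo genes) act mostly as membrane tethers and cargo carriers. In enterocytes, non-muscle myosin II sits below the brush border and at cell junctions, and class I, V, VI and VII myosins serve the microvilli and the traffic of vesicles to and from the apical membrane.

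A site was a peak with −log10 p and log2 fold of IP over input both above 3, the cutoff of the study. The 10 genes held 3 sites among 153 called peaks in the mAb list, 21 among 94 in the rAb list and 20 among 20 in the small intestine. These were 1.96% of their called peaks in mAb and 22.3% in rAb. Over the whole lists, 1.22% of 16455 called peaks were sites in mAb and 1.99% of 9146 in rAb. In the small intestine list, 100% of 1278 peaks were sites, since the list was cut at this threshold. The choice of the genes used these same values, so nothing is read from the difference. Without Myh9, 1.08% of 93 called peaks were sites in mAb and 12.5% of 40 in rAb.

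**Figure D1:**
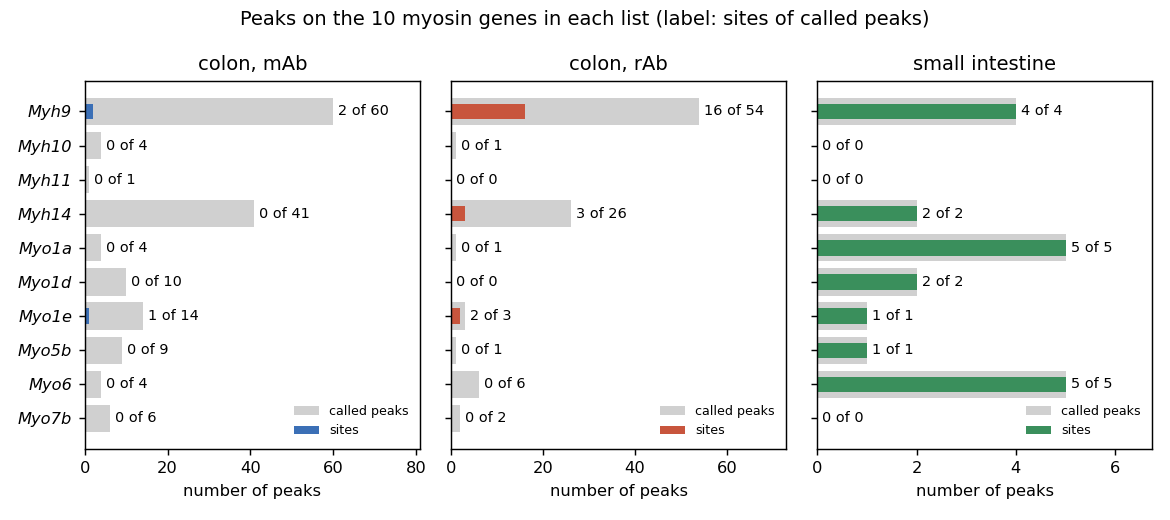
Number of called peaks (grey bars) and of sites (coloured bars) on each of the 10 genes, 1 panel per list, with the number of sites and of called peaks printed at each bar; the horizontal scales differ between panels. Myh9 had 60 and 54 called peaks in the colon lists and Myh14 41 and 26, whereas Myo1a and Myo6 led the small intestine list with 5 sites each.

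Several sites of neighbouring exons met at the exon junction once the introns are left out, and the sequences of these sites are shown so that the joins can be read. All are read 5′ to 3′ on the strand of the gene from the RefSeq GRCm38 genome, with capitals for bases of the annotated exon and lower case for bases of the adjoining intron. Myo1e encodes a class I myosin with a long tail that links membranes to actin. Its rAb sites covered the end of exon 8 (chr9:70324888-70324968, plus strand) and the start of exon 9 (chr9:70327140-70327175), which are adjacent in the spliced mRNA:
Myo1e exon 8, rAb: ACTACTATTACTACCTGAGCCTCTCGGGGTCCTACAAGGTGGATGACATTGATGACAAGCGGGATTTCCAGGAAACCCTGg
Myo1e exon 9, rAb: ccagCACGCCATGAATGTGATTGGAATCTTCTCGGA

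The mAb list had its only Myo1e site at the same start in exon 9 (chr9:70327140-70327171). Below, capitals mark the bases that the rAb site shared with it:
Myo1e exon 9, rAb, shared bases: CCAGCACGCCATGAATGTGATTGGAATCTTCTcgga

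The other place where a site of mAb met a site of rAb was the end of Myh9 exon 40 (chr15:77762951-77762976 in rAb, chr15:77762952-77762967 in mAb, minus strand). Myh9 encodes the heavy chain of non-muscle myosin IIA. Capitals again mark the shared bases:
Myh9 exon 40, rAb, shared bases: tcagctcccTGAAGAACAAACTGAGg

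The longest stretch of the 10 genes in the rAb list also lay on Myh9, where 5 abutting sites of exons 35 to 37 covered 337 bases of mRNA, codons 1645 to 1757. The longest on any other protein-coding gene covered 196 bases. Capitals mark exon bases:
Myh9 exon 35, rAb: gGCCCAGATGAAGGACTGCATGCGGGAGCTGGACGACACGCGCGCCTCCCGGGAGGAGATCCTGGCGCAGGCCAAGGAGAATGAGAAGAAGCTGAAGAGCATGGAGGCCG
Myh9 exon 35, end, rAb: AGATGATTCAGCTGCAGGAGg
Myh9 exon 36, rAb: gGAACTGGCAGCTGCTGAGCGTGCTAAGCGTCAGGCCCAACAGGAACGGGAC
Myh9 exon 36, end, rAb: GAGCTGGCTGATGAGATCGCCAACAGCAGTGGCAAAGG
Myh9 exon 37, rAb: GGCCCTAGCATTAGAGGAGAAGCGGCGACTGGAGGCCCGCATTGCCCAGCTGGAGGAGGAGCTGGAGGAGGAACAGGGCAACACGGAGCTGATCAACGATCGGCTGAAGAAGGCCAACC

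The longest stretch of the 10 genes in the small intestine was on Myo6, which encodes the myosin that moves towards the minus end of actin and serves endocytosis at the base of the microvilli. All 5 of its sites joined into 274 bases of mRNA over exons 26 to 28, codons 928 to 1019 (chr9:80288132-80292466, plus strand, introns included), and the longest on any other protein-coding gene covered 275 bases:
Myo6 exon 26, small intestine: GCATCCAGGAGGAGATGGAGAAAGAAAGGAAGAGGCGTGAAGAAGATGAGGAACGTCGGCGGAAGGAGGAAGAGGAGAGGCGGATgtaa
Myo6 exon 27, small intestine: gGAAACTTGAGATG
Myo6 exon 27, end, small intestine: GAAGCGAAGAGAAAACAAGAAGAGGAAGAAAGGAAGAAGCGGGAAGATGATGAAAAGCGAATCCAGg
Myo6 exon 28, small intestine: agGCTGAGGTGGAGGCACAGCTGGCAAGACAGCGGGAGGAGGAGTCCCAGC
Myo6 exon 28, next, small intestine: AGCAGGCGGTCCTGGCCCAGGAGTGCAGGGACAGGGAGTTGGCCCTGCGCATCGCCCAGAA

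Myo1a encodes the class I myosin that ties the actin core of the microvillus to its membrane. In the small intestine its sites at the end of exon 12 (chr10:127712598-127712650, plus strand) and the start of exon 13 (chr10:127712761-127712795) were adjacent in the mRNA over 85 bases:
Myo1a exon 12, small intestine: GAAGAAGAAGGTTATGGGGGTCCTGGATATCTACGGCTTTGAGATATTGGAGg
Myo1a exon 13, small intestine: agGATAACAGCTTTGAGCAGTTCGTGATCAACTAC

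A different class of small intestine sites lay in first introns. Capitals in these sequences mark runs of G of at least 3 bases, the letters GGG searched on the strand of the gene only:
Myh9 intron 1, chr15:77841332-77841390, minus strand: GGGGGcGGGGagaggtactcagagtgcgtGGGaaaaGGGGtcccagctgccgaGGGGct
Myo1e intron 1, chr9:70207747-70207873, plus strand: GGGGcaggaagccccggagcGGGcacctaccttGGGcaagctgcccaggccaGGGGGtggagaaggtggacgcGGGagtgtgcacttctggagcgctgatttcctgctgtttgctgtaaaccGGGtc
Myo1d intron 1, chr11:80779445-80779522, minus strand: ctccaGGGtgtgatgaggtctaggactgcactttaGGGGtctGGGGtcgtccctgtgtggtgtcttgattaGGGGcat

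The intron sites shown are examples and held 4 to 6 runs of G. Of those not shown, the Myh14 site held 5 runs, the Myo1a site 2 and the other Myo1d site 1. GGG was present in 7 of the 7 intron sites of the 10 genes and in 78.6% of the 462 other intron sites of the small intestine list. In coding sequence it was present in 8 of 13 sites of the 10 genes and in 59.0% of the 393 others. Among the small intestine coding sites of the 10 genes, the share of purines (A or G) was highest at the Myo6 site at the end of exon 27, at 86.6%, and other genes had coding sites of up to 93.6%. Its median over the 13 coding sites was 65.6%, against 58.2% over the others. In rAb, the median was 63.9% over the 21 sites of the 10 genes, all coding, and 52.7% over the 63 other coding sites. Stretches of 20 bases were searched for in the transcripts of all other genes. Of 43 sites (all but that of Myo5b), 39 were long enough, and 5 shared such a stretch. Of these sites, 4 lay on Myh9, 3 of them sharing bases with the paralog Myh10. Whether reads from these stretches were split between the genes was not tested.

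Myh9 had the most called peaks of the 10 genes in both colon lists and the most sites of any gene in the rAb list. The gene lies on chromosome 15 (77760587 to 77842175, minus strand), and exons are numbered in its transcript of 41 exons with 1960 codons. Called peaks covered 54.2% of its coding bases in mAb and 51.1% in rAb. In mAb, 49 of 60 called peaks lay in coding sequence, and in rAb 47 of 54.

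The mAb sites of Myh9 were in exon 40, with a log2 fold of 3.81 from 38 IP and 4 input reads (95% counting interval 2.34 to 5.76), and in the 3′ UTR of exon 41, with 3.26 from 13 and 2 reads (1.12 to 6.45). Reads were traced from the deposited values as described under the processing. The intervals are exact (Clopper-Pearson) and cover counting error only. With so few reads, both intervals reached below the cutoff of 3. So did the intervals of all 21 rAb sites of the 10 genes, where the highest lower limit was 2.93.

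The 16 rAb sites of Myh9 all lay in coding sequence, in 11 exons from 22 to 41. Their log2 folds ran from 3.03 to 3.85, with 13 to 104 IP reads over 3 to 36 input reads. The highest, 3.85 (2.64 to 5.27), was the 15-base site at the start of exon 41, with 32 IP and 7 input reads. The most deeply read was the site of 210 bases in exon 31, with 104 IP and 36 input reads and a log2 fold of 3.18 (2.63 to 3.77). All but 1 of the 16 sites were in the later part of the coding sequence (after codon 980, its middle codon). The exception, in exon 22, was at codons 878 to 884 with a log2 fold of 3.03 (1.45 to 4.87). Joined in the spliced mRNA where they lay within 10 bases, the 16 sites formed 9 stretches.

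Called peaks were also found in the earlier part of Myh9, with lower folds. In mAb, 17 called peaks of codons 1 to 980 had a median log2 fold of 0.56, from -1.52 to 1.79. The 32 of codons past 980 had a median of 2.34, from 1.04 to 3.81. In rAb, the medians were 1.47 over 14 peaks (-0.25 to 3.03) and 2.90 over 33 peaks (1.48 to 3.85). The ranges of the parts overlapped in each list, but the low folds stood early in the gene in both.

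Summed over the traced peaks of each part, the mAb log2 fold was 1.34 (1.02 to 1.66) from 229 IP and 134 input reads before the middle codon and 2.28 (2.13 to 2.43) from 1604 and 489 reads after it. In rAb it was 1.93 (1.65 to 2.22) from 227 and 187 reads and 2.89 (2.74 to 3.03) from 1268 and 540 reads. Peaks whose reads could not be traced, 6 in mAb and 1 in rAb, all in the earlier part, were left out, and each had a log2 fold of at most 0.24. A read that overlaps neighbouring peaks is counted in each, so these intervals are narrower than those of independent reads. Within each list the intervals of the earlier and later parts did not meet.

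Over all its exonic called peaks, the log2 fold of Myh9 tended to be higher the farther a peak lay from the 5′ end of the mRNA, with a Spearman rho of 0.83 over 53 peaks in mAb and 0.64 over 50 in rAb. These are descriptions over neighbouring peaks of the same transcript and libraries, and peaks are not replicates. Among the other genes with at least 10 exonic called peaks, the median rho was 0.13 over 142 genes in mAb and 0.14 over 74 in rAb. A rho at or above that of Myh9 was found in 2 of these genes in mAb and in 10 in rAb.

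**Figure D2:**
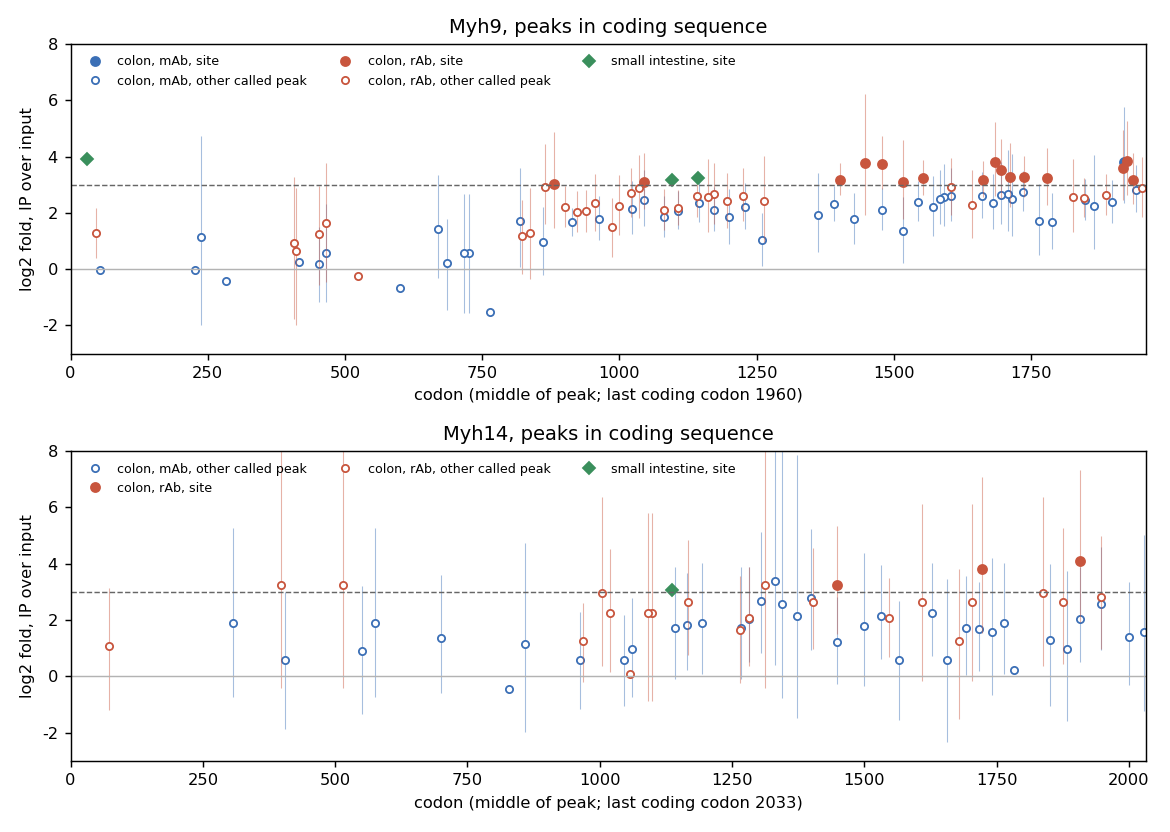
Log2 fold of IP over input (vertical axis) against the codon at the middle of each peak (horizontal axis) for peaks in the coding sequence of Myh9 (top) and Myh14 (bottom). Filled symbols are sites, open symbols are other called peaks, vertical lines are 95% counting intervals of traced colon peaks (cropped at the axis), and the dashed line is the cutoff of 3; on Myh9, 15 of the 16 rAb sites stand past codon 980, and peaks of the earlier part lie mostly under 2.

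Much of Myh9 was called in both colon lists. Of its called peaks, 39 of 60 in mAb and 39 of 54 in rAb overlapped a called peak of the other list. Outside the 10 genes, 2934 of 16302 called peaks in mAb and 2872 of 9052 in rAb did so. The difference was not tested. The overlapping Myh9 peaks formed 51 pairs, and the rAb log2 fold was the higher in 48 of them, by a median of 0.57. Of the rAb sites on Myh9, 15 of 16 overlapped a called peak of mAb, where 1 of those peaks was itself a site. The rAb value was also the higher in 76.5% of 3215 overlapping pairs outside the 10 genes, by a median of 0.67. Over all called peaks the median log2 fold was 1.15 in mAb and 2.24 in rAb, and over those with at least 10 IP reads 1.56 and 1.52. Log2 folds of the pairs moved together (rho of 0.62, Pearson's r of 0.66, over pairs that share peaks and transcript). The labels give 1 CLIP library per list, so the difference has no replicate check.

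In the small intestine, Myh9 had 4 sites. The site with the highest log2 fold, 5.15 with a −log10 p of 12.1, was in intron 1, 785 bases from the start of the gene. The other 3 were in coding sequence: exon 2 with 3.93, at codons 19 to 42, and exon 26 with 3.24 and 3.15, at codons 1132 to 1154 and 1091 to 1100. None of them met a colon site. The exon 2 site overlapped a colon peak of log2 fold -0.02 in mAb and 1.29 (0.40 to 2.17) in rAb. The exon 26 sites overlapped peaks of 2.36 (1.68 to 3.10) and 2.08 (1.43 to 2.77) in mAb and of 2.59 (1.85 to 3.37) and 2.18 (1.56 to 2.80) in rAb. At exon 2 the small intestine and colon values lay farthest apart.

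Myh14 encodes the heavy chain of non-muscle myosin IIC, and lies on chromosome 7 (44605803 to 44670843, minus strand). Called peaks numbered 41 in mAb and 26 in rAb, and 37 and 24 of these were in coding sequence. No mAb peak was a site. The highest mAb log2 fold, 3.37 in exon 28, rested on 7 IP reads and 1 input read, with a −log10 p of 2.05.

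The 3 rAb sites of Myh14 were in exon 39 with a log2 fold of 4.11 (1.92 to 7.33) from 11 IP and 2 input reads, exon 35 with 3.82 (1.55 to 7.07) from 9 and 2 reads, and exon 31 with 3.24 (1.52 to 5.33) from 12 and 4 reads. All 3 were in the later part of the coding sequence, after codon 1016, and all 3 overlapped a called peak of mAb. Along the Myh14 mRNA the fold and the position had a rho of 0.13 over 37 exonic peaks in mAb and 0.33 over 24 in rAb. Summed over traced peaks, the parts before and after the middle codon had log2 folds of 1.09 (0.31 to 1.89) and 1.77 (1.44 to 2.10) in mAb. In rAb these were 1.78 (0.88 to 2.68) and 2.58 (2.14 to 3.04), so the intervals of the earlier and later parts met in each list. The small intestine sites of Myh14 were in exon 25, with a log2 fold of 3.08 (−log10 p 19.8), and in the first intron of its longest transcript, with 5.72.

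Myh10 and Myh11 gave no site in any list. Myh10 encodes non-muscle myosin IIB, and had 4 called peaks in mAb and 1 in rAb, each with 4 or 5 IP reads. The rAb peak in exon 2 had a log2 fold of 3.65, past the cutoff, with −log10 p at 1.87 from 4 IP reads and 1 input read. Myh11, the smooth muscle heavy chain, had 1 called peak in mAb, in exon 29, with 5 IP reads over 1 input read (log2 fold 2.89, -0.27 to 8.45), and none in rAb or in the small intestine.

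Other smooth muscle markers were as sparse. Of 8 such genes, Acta2 had called peaks in mAb and Tagln and Mylk in rAb, none of them sites, and Actg2, Des and Cnn1 had none. All 8 epithelial markers (Epcam, Cdh1, Vil1, Krt8, Krt18, Krt19, Krt20 and Cldn7) had called peaks in both colon lists, 126 together in mAb and 72 in rAb. Of these, 4 in mAb were sites, all on Krt8, and none in rAb. Of 6 fibroblast markers, 4 (Col1a1, Col1a2, Col3a1 and Vim) had 90 called peaks together in mAb and 77 in rAb, with no site. Of 6 immune markers, Lyz2 and Cd74 had 13 in mAb and 12 in rAb, with no site. Neither the immune nor the fibroblast markers were in the small intestine list, which keeps enriched peaks only. Non-muscle myosin IIA is made in many cell types, and the part of stromal RNA in the colon peaks of Myh9 was not tested.

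**Figure D3:**
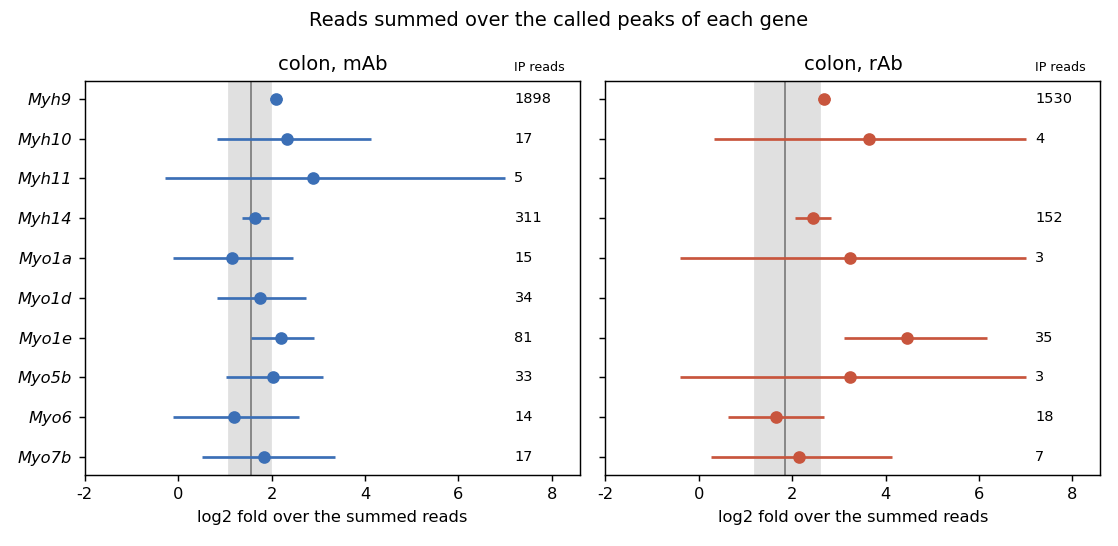
Log2 fold from IP and input reads summed over the traced called peaks of each gene (points) with its 95% counting interval (lines, cropped at 7), for mAb (left) and rAb (right), with the summed IP reads at the right edge of each panel. The grey band spans the middle 50% of genes with at least 10 IP reads and the grey line their median; Myo1e in rAb stands at 4.46 from 35 IP reads, and genes with 3 to 5 IP reads have intervals that span most of the axis.

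Myo1e had a site in each list, on the exons shown above in the colon and in intron 1 in the small intestine. It lies on chromosome 9 (70207350 to 70399766, plus strand) with 28 exons and 1107 codons. The exon 9 site had a log2 fold of 3.15 (0.98 to 6.35) in mAb and 4.24 (2.07 to 7.44) in rAb, each from 12 IP and 2 input reads. The same read numbers gave different folds because the folds are scaled by depth, with 1.48 input reads per IP read in the mAb libraries and 3.15 in the rAb libraries. In exon 8, the rAb site had a log2 fold of 4.98 (2.93 to 8.12) from 20 IP and 2 input reads. The overlapping mAb peak, with 2.89 (1.06 to 5.32) from 15 and 3 reads, fell just short of the cutoff. At both exons the intervals of the lists overlapped.

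All Myo1e colon sites lay at codons 233 to 270, within the motor domain. The mAb list had 10 further called peaks in the first intron of Myo1e, with 3 to 7 IP reads each and none a site. In the small intestine, the intron 1 site was 397 bases from the start of the gene with a log2 fold of 4.46 (−log10 p 12.6), and it overlapped no colon peak. Summed over its called peaks, Myo1e had a log2 fold of 2.20 (1.55 to 2.90) in mAb and 4.46 (3.10 to 6.17) in rAb. The middle 50% of genes with at least 10 IP reads ran from 1.09 to 1.98 in mAb and from 1.20 to 2.59 in rAb.

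**Figure D4:**
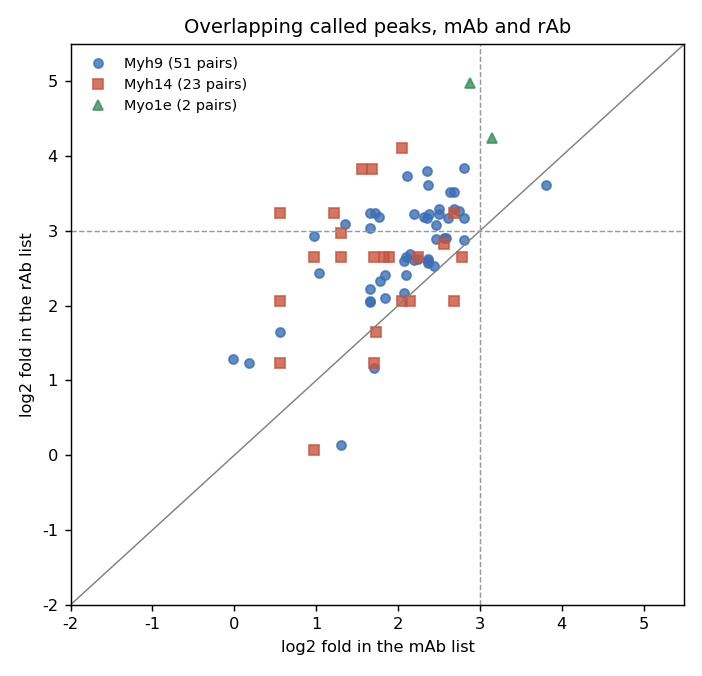
Log2 fold in the mAb list (horizontal axis) against log2 fold in the rAb list (vertical axis) for 76 pairs of overlapping called peaks on Myh9, Myh14 and Myo1e. Dashed lines mark the cutoff of 3 and the solid line equal values; 67 pairs lie above it, and 2 lie past the cutoff on both axes (Myh9 exon 40 and Myo1e exon 9).

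Over the 10 genes, 2 of 3 mAb sites (66.7%) and 2 of 21 rAb sites (9.52%) overlapped a site of the other colon list. Over the other genes these were 37.4% of 198 and 47.2% of 161 sites. Of the rAb sites of the 10 genes, 20 of 21 (95.2%) overlapped a called peak of mAb, as did 92.5% of the 161 others, so most were called in both lists. The median log2 fold of all 76 overlapping pairs was 2.10 in mAb and 2.76 in rAb. On Myh14, the rAb value was the higher in 17 of 23 pairs.

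Myo1a, Myo1d, Myo5b and Myo6, myosins of the brush border and of vesicle traffic, had sites in the small intestine list and none in the colon lists, where few reads lay on them. Myo1a, on chromosome 10, had 5 small intestine sites. Besides those at exons 12 and 13, with log2 folds of 3.83 and 3.78, they lay in exon 24 with 3.45, in exon 27 at the stop codon with 4.32, and in intron 21 with 4.57. The exon 12 site had the highest −log10 p of the 10 genes in this list, 34.8. In the colon, Myo1a had 4 called peaks in mAb and 1 in rAb, each from 3 to 5 IP reads.

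Myo6 had its 5 small intestine sites at log2 folds of 3.65 in exon 26, 3.52 and 3.86 in exon 27, and 4.23 and 3.64 in exon 28. In rAb, 1 called peak of 3 IP reads over 1 input read overlapped the sites of exon 28, and in mAb 1 of 3 over 2 reads touched exon 27. Neither was a site. The 6 rAb peaks of Myo6 had 3 IP reads each, and its 4 mAb peaks had 3 to 5.

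Myo1d, a class I myosin of the enterocyte border, had both of its small intestine sites in intron 1. Their log2 folds were 6.57, the highest of the 10 genes, at 20176 bases from the gene start, and 5.47 at 503 bases. Of its 10 called peaks in mAb, 9 were in introns far from exons, each of 3 or 4 IP reads, and rAb had none. Myo5b, which carries recycling vesicles towards the apical membrane, had 1 small intestine site, in intron 1 at 3606 bases from the gene start, with a log2 fold of 4.91 (−log10 p 8.38). Myo7b, which holds the adhesion complex at the tips of microvilli, had no site in any list, with 6 called peaks in mAb and 2 in rAb.

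The small intestine sites of the 10 genes fell into separate ranges of fold by region. The 7 intron sites had log2 folds from 4.46 to 6.57 (median 5.15) and the 13 coding sites from 3.08 to 4.32 (median 3.65). The site at 4.32, at the stop codon of Myo1a, counts as coding by any overlap, and its midpoint lies in the 3′ UTR. The sites of other genes in the list had medians of 4.81 over 462 intron sites and 3.73 over 393 coding sites. Their ranges overlapped, the coding sites reaching 9.15 and the intron sites starting at 3.04. Of the 7 intron sites, 6 were in intron 1, as were 71.3% (66.9 to 75.5, exact 95% interval) of 443 other intron sites of protein-coding genes. No intron site of the 10 genes was found in either colon list, where 90 other intron sites of protein-coding genes were counted in mAb and 38 in rAb.

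**Figure D5:**
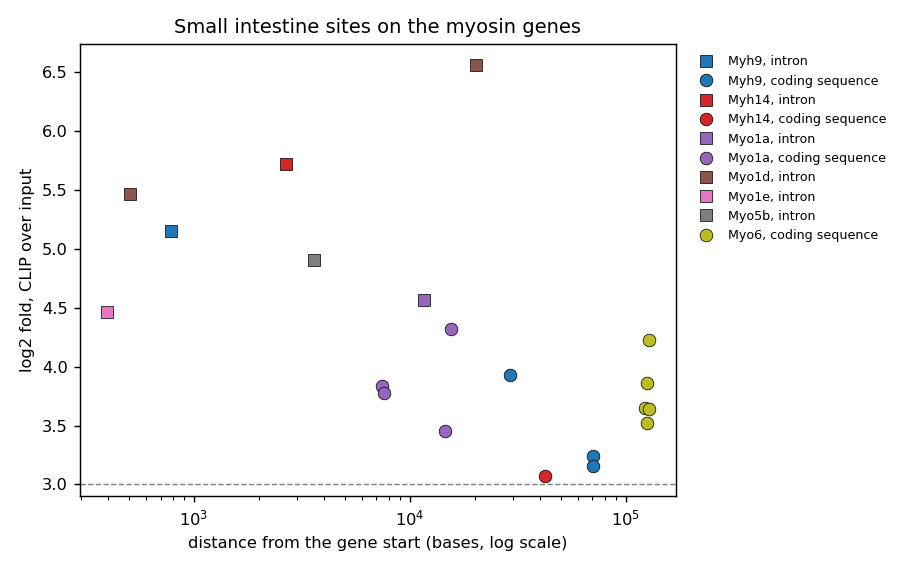
Log2 fold of CLIP over input (vertical axis) against the distance of the site from the start of the gene (horizontal axis, log scale) for the 20 small intestine sites; squares are intron sites, circles coding sites, and colours the genes. The 7 intron sites all stand above the 13 coding sites, and the 5 Myo6 sites lie together at 123101 to 127375 bases into the gene.

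Coding sequence held 13 of the 20 small intestine sites (65%, exact 95% interval 40.8 to 84.6%). It held 21 of the 21 sites in rAb (83.9 to 100%) and 2 of the 3 in mAb (9.43 to 99.2%). Over the other sites of each list the share was 31.2% of 1258, 39.1% of 161 and 22.7% of 198. These others include 203, 42 and 40 sites in exons of non-coding transcripts, which cannot be coding. None of the sites of the 10 genes was of that class, so the shares are not over like genes. Called peaks of the 10 genes were also mostly coding, at 69.9% in mAb and 87.2% in rAb, against 49.7% and 55.3% of the other called peaks. Of those others, 983 in mAb and 713 in rAb lay in exons of non-coding transcripts. Sites of a gene share their transcript and reads, so these intervals treat as independent what is not. Sites that joined across at least 1 exon junction made up 12 of 21 exonic sites of the 10 genes in rAb and 7 of 13 in the small intestine, against 26.3% and 12.8% of the other exonic sites of protein-coding genes. In mAb they were 0 of 3, against 21.8% of 55 others. Where a site ran past an exon edge, it did so by at most 4 bases.

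Of the 20 small intestine sites, 7 (35%) overlapped a called peak of either colon list: 3 on Myh9, 1 on Myh14 and 3 on Myo6. Over the other genes it was 503 of 1258 sites. None of the 20 overlapped a colon site. That count was not made over the sites of other genes, so nothing is read from it. All 7 sites on a colon called peak were in coding sequence, where they made up 53.8% of 13 sites, against 35.4% of 393 others. All 7 had a lower log2 fold in the colon. The small intestine list holds only folds above 3, and the colon lists hold all called peaks. This direction therefore depends on how the lists were cut, and nothing is read from it.

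Some genes that work with these myosins also had sites. Of the 6582 genes with a peak in any list, 491 had a site in the small intestine, 147 in mAb and 124 in rAb. Of the 8 epithelial markers, 6 had a site in the small intestine, so such sites were not particular to myosin partners. Of 19 light chain and regulator genes, 3 had a site in the small intestine. Among these, Rock2, the kinase that activates non-muscle myosin II, had a best log2 fold of 3.42. Calm2, a calcium-binding light chain of unconventional myosins, reached 5.19. No gene of this list had a site in rAb. The regulatory light chain genes Myl12a and Myl12b had called peaks in both colon lists and no site in any list.

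Sites in the small intestine were also found on 8 of 15 actin partners, not all of them named here. The actins Actb and Actg1 reached 6.19 and 4.28, and the crosslinkers Actn4, Vil1 and Pls1 reached 3.15, 4.10 and 5.68. Ezr, the membrane linker ezrin, reached 4.98 and Eps8, which caps and bundles microvillus actin, 5.45. In the colon, Actb had 1 site in mAb (3.81) and Actn1 2 in rAb (best 3.35). Of 10 cargo and adhesion partners, Anks4b, part of the tip complex with Myo7b, had 2 sites in the small intestine, the higher at 4.31, and no gene had any in the colon.

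Of 29 other myosin heavy chain genes, Myo15b had 4 sites in the small intestine (best 5.75) and Myo10, a filopodial myosin, 1 in mAb (4.15). None had a site in rAb. Sites in all 3 lists were found on 6 genes. After Myh9, with 22 sites summed, the 3 others with most were Lars2, a mitochondrial leucyl-tRNA synthetase, with 7, Cxadr, a tight junction receptor, with 6, and Sdcbp, the adaptor syntenin, with 4, as many as Myo1e.

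Peaks just inside and outside the cutoff were close in value. In rAb, the lowest sites of Myh9 had log2 folds of 3.03 and 3.08 (exons 22 and 25), and the highest peaks below the cutoff had 2.93 and 2.91 (exons 21 and 34) with −log10 p of 6.50 and 11.6. In mAb, the exon 41 coding peak of Myh9 missed with 2.81 from 76 IP and 16 input reads, at a −log10 p of 15.5, and the exon 8 peak of Myo1e with 2.89. In the small intestine, the lowest were 3.08 on Myh14 and 3.15 on Myh9, and the list holds nothing below 3.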

How the data were processed

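The labels gave 8 eCLIPseq samples, and the analysis began from the peak lists the authors deposited. Per the labels, reads were trimmed with cutadapt 1.9.1, aligned with STAR 2.4.0i to mm10 and handled with SAMtools 1.4.1. Peaks were called by the authors on IP reads with CLIPper. The deposited log2 fold is IP over input reads, each normalized for read depth, and the deposited −log10 p (capped at 400) belongs to a test of the same reads. Small intestine peaks were merged by the authors with the Irreproducible Discovery Rate procedure, and no values per replicate are in that list. Another list could not be tied to a sample by its label, so its 2 value columns were left out.

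The 10 genes and all gene lists were chosen with earlier results of these data known. Peaks were assigned to GENCODE M21 genes and to coding sequence, 5′ UTR, 3′ UTR, non-coding exon, intron within 500 bases of an exon or other intron, in this order. Exon numbers are those of the transcript with the longest coding sequence, which matched the GRCm38 genome for all 10 genes, and coordinates count from 1. Where a site lay outside that transcript (the Myh14 intron site), the longest overlapping coding transcript was used. All 10 genes were reported, from the other lists each gene with a site except some that are not reported here, and the 3 other genes with sites in all lists and the most sites.

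Colon reads were traced by taking the commonest log2 fold as 3 IP reads over 1 input read, which fixes the ratio of depths, and seeking the smallest whole reads that match the fold and come within 1% of the deposited −log10 p. This was tried where −log10 p was above 0 and below its cap, in 13011 of 16455 mAb and 8282 of 9146 rAb peaks. It gave reads for 12868 and 8226 of them. The tracing was tested on simulated data with the ratio of depths supplied and p values from its own formula. The step that takes the ratio from the commonest log2 fold was not tested. Exact 95% intervals of the IP share were turned into intervals of the fold and cover counting error only. Depth in total reads is unknown here. Each group had 1 list, so no test between lists was made. Alternatives were other cutoffs, joined sites, another region or gene rule, another overlap and, for best log2 folds, the median over the gene's sites. Python 3.11.15, pandas 2.3.3, SciPy 1.17.1 and matplotlib 3.10.9 were used.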

Additional observations from a re-analysis of the deposited data

How the results depend on the processing

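Of 69 alternatives, 48 left the result the same and 21 moved it. A count was the same within 1.5 times its value, and a share within its exact 95% interval. The best log2 folds of Myh9 and Myo1e were set against the median over the gene's sites. That median had to lie within the counting interval of the best site or, in the small intestine, equal its value. For Myh9 in the small intestine the median moved, from 5.15 to 3.59. Some alternatives could hardly move. Myo1e had 1 site in mAb and 1 in the small intestine, so its median there equals its best fold. The interval of the mAb coding share, from 3 sites, ran from 9.43 to 99.2%. A log2 fold above 4 left 0 sites on 0 genes in mAb, 3 sites in rAb and 9 in the small intestine, 0 overlaps of mAb with rAb sites and 1 small intestine site on a colon peak, and the coding share in the small intestine fell to 22.2%, since all 7 intron sites are above it. A log2 fold above 1 gave 34 sites in mAb and 46 in rAb, with 33 overlaps. A −log10 p above 5 left 1 site on 1 gene in mAb and 1 overlap. With a reciprocal overlap of 50%, 2 small intestine sites met a colon peak. Chosen after seeing the data, leaving out Myh9 gave 1 site in mAb, with a coding share of 100%, 5 in rAb, 1 overlap of mAb with rAb and 4 small intestine sites on a colon peak, and joining sites in the spliced transcript gave 13 in rAb. Read depth limits the colon values, since sites of the 10 genes there rest on 9 to 104 IP reads and 2 to 36 input reads.

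No member site had an input of 1 read, so taking such an input as 0 plus a pseudocount changed nothing and has no value. No site of mAb was above a log2 fold of 4, so no coding share is given there. Leaving out a replicate was not run, because replicates are merged in the lists. No paired analysis was possible because the 2 small intestine replicates are merged into 1 list, and the values come from no test between samples.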
